A study of Homo sapiens with 42 samples.

Results

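Untreated cultures of 7 human acute lymphoblastic leukaemia (ALL) cell lines were compared by lineage, 2 lines from T-cell leukaemia (CEM and DND41) against 5 from B-cell precursor leukaemia (Nalm6, SUPB15, RS411, REH and 697). The comparison used the 21 libraries labelled as untreated controls, 3 per line, out of 42 in the series, so that 6 libraries were of T and 15 of B-precursor origin. The remaining 21 libraries came from the same lines exposed for 4 h to 1 IU/ml of the enzyme L-asparaginase, and entered only 1 of the alternative analyses. All lines were grown in the same RPMI medium with serum and glutamine, and the labels describe the 3 libraries of a line as independent experiments. The labels name the lines but not their lineage, which was taken from the known origin of each line. Each line grew out of the leukaemia of a single patient. REH carries an ETV6-RUNX1 fusion, SUPB15 BCR-ABL1 and RS411 KMT2A-AFF1, so lines of the B-precursor group also differ from each other in such lesions. Lineage cannot be told apart from other properties that the lines of a lineage share, the history of the cultures among them. The line was therefore the unit of comparison, with n = 2 T lines and n = 5 B-precursor lines.

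T and B lymphocytes arise from a shared progenitor and both rearrange antigen receptor genes with the RAG recombinase. Developing T cells depend on NOTCH1 signals in the thymus and display the T-cell receptor together with the CD3 chains, whose tails are phosphorylated by the kinase LCK. B-cell precursors are specified by EBF1 and PAX5, display a pre-B-cell receptor made of the heavy chain, the surrogate light chain (IGLL1, VPREB1) and the signalling chains CD79A and CD79B, and present antigen on MHC class II molecules, whose genes are switched on by the coactivator CIITA. Leukaemic lines are stopped at stages along these paths, and surface antigens of each lineage are used for diagnosis and as targets of therapy.

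Total counts per untreated library lay between 22.68 M and 77.14 M (M for mega), with a median of 34.77 M in the T and 46.22 M in the B-precursor libraries. Expression is given as CPM, the count scaled to a common library size, averaged over the 3 libraries of a line. CPM is not divided by gene length, so levels are compared between lines and not between genes. The summed CPM of 10 T-cell markers was 1970 to 2420 in the T libraries and 6.49 to 121 in the B-precursor libraries. For 10 B-cell markers the sum was 1130 to 3200 in the B-precursor libraries, and 91.0 to 1300 in the T libraries, where CD79A alone averaged 894 CPM in DND41. Marker sums of other cells were low in both lineages, with 0.121 to 2.61 CPM (T) and 1.44 to 72.6 CPM (B) for 12 myeloid genes, 13.8 to 59.0 and 2.08 to 39.3 for 10 natural killer genes, 2.47 to 8.14 and 0.128 to 21 for 10 erythroid genes, and 1.12 to 64.8 and 5.94 to 88.8 for 10 stromal genes. Genes of the pseudoautosomal regions of the sex chromosomes cannot be read from these tables: all 18 that were looked up, among them CD99, CRLF2 and IL3RA, stayed at or below 0.0485 CPM in every line. Such genes are not interpreted. The part that other cell types or depth had in the results was not tested.

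Across 21380 genes with enough counts to test, gene expression of the 2 T lines was more alike than that of any T and B-precursor pair. Pearson's correlation of log2 CPM across genes was 0.911 between CEM and DND41, 0.874 to 0.893 between B-precursor lines (10 pairs) and 0.829 to 0.856 between lineages (10 pairs), while libraries of 1 line correlated at 0.955 to 0.994. These are correlations across genes, which are not independent replicates. The first principal component of the line means held 33.4% of the variance and placed CEM at 161.7 and DND41 at 197.0, with all B-precursor lines between -51.0 and -86.4. The second component (16%) ran within the lineages, with 697 at -148.7, REH at 95.9, CEM at 40.7 and DND41 at -49.8.

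**Figure D1:**
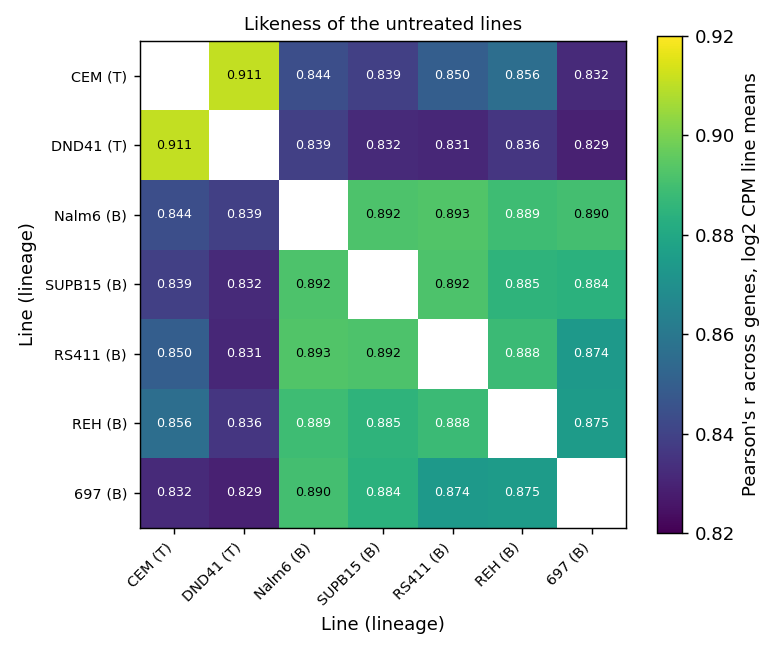
Heat map of Pearson's r across 21380 genes between the mean log2 CPM of each pair of untreated lines, with the lineage of each line in brackets and a colour scale that does not start at 0. The T pair reaches 0.911, and the block of pairs between lineages does not exceed 0.856.

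Lineage differences were tested with edgeR's quasi-likelihood test on the counts of each line summed over its 3 libraries, with Benjamini-Hochberg adjustment over all genes, and a gene was called at an adjusted p under 0.05. Of the 21380 genes, 140 (0.655%) were called, 76 higher in the T lines (0.355%) and 64 higher in the B-precursor lines (0.299%). At an unadjusted p under 0.05 there were 2751 of the 21380 genes, and counts at that threshold in the lists below stand beside this share. In every one of the 140 the 6 T and 15 B-precursor libraries did not overlap in CPM. A wider description without a test counts the genes whose line means do not overlap: both T means lay above all 5 B-precursor means in 2193 genes (10.3%) and below all of them in 2398 (11.2%), together 21.5%. Most calls were near switch-like, with a median size of 8.74 on the log2 scale among genes higher in T and 9.34 among genes higher in B. A gene that was not called is not thereby shown to be alike in the lineages. With 0.655% of all genes called, the same holds for a list without calls. With so few lines the number of calls depended on each of them. It was 12 without Nalm6, 19 without RS411, 22 without REH, 36 without DND41, 40 without SUPB15, 48 without 697 and 154 without CEM, and DESeq2 and limma on the same lines called 2083 and 520. The direction of all 140 genes was the same in each of these fits. Of the DESeq2 calls 664 were higher in T and 1419 higher in B, and of the limma calls 281 and 239. Counts of list members called by DESeq2 and limma below stand beside these totals of 21380 genes. Without CEM or DND41 a single T line is left, which is then assumed to vary like the B-precursor lines. Called whichever of the 7 lines was left out were TRBC2 (higher in T) and CCDC50, KIF16B, TRIB1 and ZCCHC7 (higher in B). In all 7 lines the first untreated library was less like its fellows than they were like each other. In 697 its r was 0.955 and 0.958 against 0.989. In CEM it was 0.989 and 0.986 against 0.991, and in REH 0.988 and 0.987 against 0.992. Without the first libraries of DND41, Nalm6, SUPB15, RS411 and 697, 140 genes were again called, 121 of them shared. That fit kept the first libraries of CEM and REH.

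**Figure D2:**
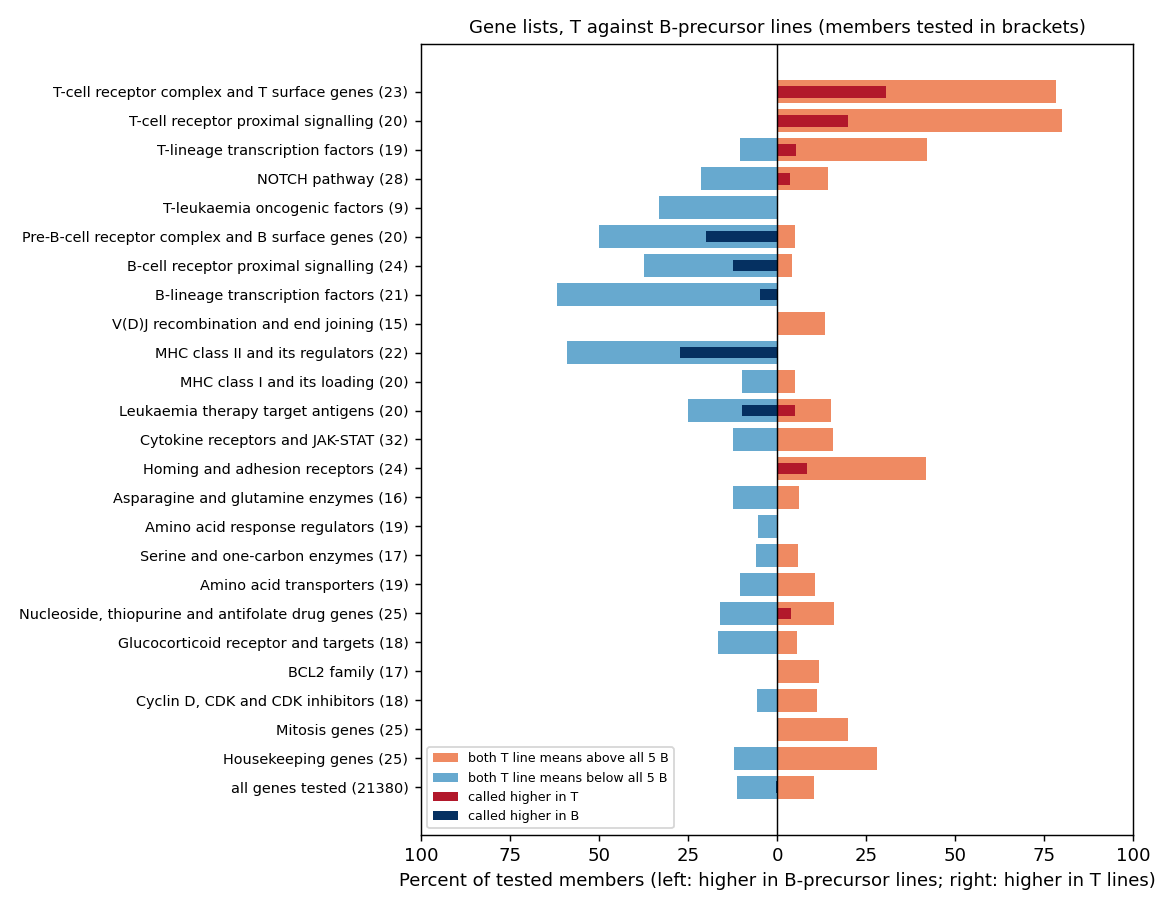
Percent of the tested members of 24 gene lists (number tested in brackets) and of all genes whose 2 T line means lay above (right, light) or below (left, light) all 5 B-precursor means, with the percent called by edgeR as the narrow dark bars. Lists of the T-cell receptor reach furthest to the right, with 78.3% and 80.0% of members not overlapping, and the MHC class II and B-cell lists to the left, against 10.3% and 11.2% of all genes.

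Some of the clearest members of the T and B groups have promoters in the RefSeq table (build GRCh38.p14), where 33 of the 76 and 33 of the 64 called genes were found. The 250 bases before the gene start are shown for those on which the results below turn, each read 5′ to 3′ on the gene's own strand. CD3D encodes a chain of the T-cell receptor complex and was not detected in any B-precursor library. Its window is chr11:118342706-118342955 (minus strand), with the RUNX recognition letters TGTGGT 200 bases before the start. VPREB3 encodes a protein of the pre-B-cell receptor assembly, and its window is chr22:23754426-23754675 (minus strand), with the E-box CAGGTG read on the other strand 187 bases before the start, TGTGGT at 134 and 32 bases, and ATTGG, the reverse of the CCAAT box, at 91 bases. In all windows shown, capitals mark every match to these 3 motifs on either strand.
CD3D: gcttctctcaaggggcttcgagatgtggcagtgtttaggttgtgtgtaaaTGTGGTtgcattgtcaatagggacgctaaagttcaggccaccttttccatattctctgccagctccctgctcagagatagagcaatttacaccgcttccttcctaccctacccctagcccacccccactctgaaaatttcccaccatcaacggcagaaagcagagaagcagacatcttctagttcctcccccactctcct
VPREB3: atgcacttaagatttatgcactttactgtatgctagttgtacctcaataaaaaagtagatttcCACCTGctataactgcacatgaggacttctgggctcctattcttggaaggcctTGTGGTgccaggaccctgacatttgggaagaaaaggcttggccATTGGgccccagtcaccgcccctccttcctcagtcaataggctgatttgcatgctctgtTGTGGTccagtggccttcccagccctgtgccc

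The 4 called MHC class II genes and class II partners with an entry are shown because they moved together, and because genes of this group are known to share an upstream block that holds a CCAAT box bound by NF-Y. The windows are chr6:32589849-32590098 (minus strand), chr6:33075740-33075989 (plus strand), chr6:32666658-32666907 (minus strand) and chr5:150412911-150413160 (minus strand). The capitals here are CCAAT or its reverse complement ATTGG.
HLA-DRB1: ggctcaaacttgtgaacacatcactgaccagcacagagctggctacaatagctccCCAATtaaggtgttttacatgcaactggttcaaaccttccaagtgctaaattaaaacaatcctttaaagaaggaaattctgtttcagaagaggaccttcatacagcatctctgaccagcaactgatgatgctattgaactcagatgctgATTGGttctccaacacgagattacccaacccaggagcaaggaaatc
HLA-DPB1: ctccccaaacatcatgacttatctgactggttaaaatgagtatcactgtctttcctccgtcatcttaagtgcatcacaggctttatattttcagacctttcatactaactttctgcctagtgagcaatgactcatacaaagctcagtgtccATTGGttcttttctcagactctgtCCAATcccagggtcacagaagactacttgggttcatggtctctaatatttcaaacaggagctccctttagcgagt
HLA-DQB1: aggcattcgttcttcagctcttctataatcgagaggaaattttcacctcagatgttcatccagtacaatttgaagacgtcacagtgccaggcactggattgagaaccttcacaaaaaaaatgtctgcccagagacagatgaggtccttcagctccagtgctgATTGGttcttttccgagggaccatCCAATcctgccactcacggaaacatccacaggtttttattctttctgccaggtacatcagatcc
CD74: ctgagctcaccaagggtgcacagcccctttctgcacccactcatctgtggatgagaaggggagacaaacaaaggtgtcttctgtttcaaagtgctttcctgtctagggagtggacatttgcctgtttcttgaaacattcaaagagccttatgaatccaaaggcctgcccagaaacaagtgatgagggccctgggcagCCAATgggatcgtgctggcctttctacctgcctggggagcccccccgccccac

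CCAAT, searched on both strands, occurred in each of these 4 windows. In HLA-DPB1 and HLA-DQB1 it stood as a pair on opposite strands, 24 bases apart in both, beginning 99 and 88 bases before the start. CCAAT was found in 17 of the 33 windows of genes called higher in B (51.5%). These 17 include the 4 windows above, shown because their group is known to hold this box. It was in 8 of 33 windows of genes called higher in T (24.2%) and in 33.0% of all 27305 windows. The RUNX letters were present in 4 of 33 windows of each called group (12.1%) and in 10.9% of all windows, and CAGGTG in 27.3% (T), 21.2% (B) and 17.5% (all). The RUNX letters thus occurred in windows of both lineages. A match describes letters and was not tested as a binding site.

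The CD3 genes CD3D, CD3E and CD3G and the receptor gene TRBC2 were on in both T lines, with at most 2 counts each in the 15 B-precursor libraries together. Among 23 tested genes of the receptor complex and the T-cell surface, 7 were called higher in T (background 0.355%) and none higher in B. Both T means lay above all B-precursor means in 18 (10.3% of all genes). The list's median log2 fold change (T minus B) was 8.56, against -0.07 for all genes. The called genes were the CD3 chains CD3D, CD3E and CD3G, the constant region of the receptor's beta chain TRBC2 and the early T-cell antigen CD7. The others were CD1B and CD1E, members of the CD1 family expressed in cortical thymocytes. Leaving out a line left between 2 (without DND41 or REH) and 6 (without 697) of the 7 called, and DESeq2 called 13 and limma 11 members.

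CD3D was at 388, 525 and 584 CPM in the 3 CEM libraries and at 749, 743 and 867 in those of DND41, means of 499 ± 100 (SD, n = 3) and 786 ± 69.7. None of the 15 B-precursor libraries held a single CD3D count, so the T mean was at least 137000-fold higher, against a floor of 3 counts over the B-precursor group (adjusted p = 0.027, edgeR). CD3G was at 209 ± 15.7 CPM in CEM and 446 ± 55.4 in DND41, with 1 count in the B-precursor libraries together (adjusted p = 0.0015, edgeR). CD3E reached 105 ± 6.12 and 196 ± 39.2 CPM, with 2 counts in the B-precursor group, both in REH (adjusted p = 0.011, edgeR). These 3 genes lie next to each other on chromosome 11, and each was higher in DND41 than in CEM. TRBC2 gave the smallest adjusted p of the list (0.0011, edgeR), with 760 ± 148 CPM in CEM, 629 ± 15.3 in DND41 and 1 count among the B-precursor libraries, a ratio of 444000 with a counting interval from 79800 to 17600000. Intervals and floors cover counting error only.

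CD7 was higher in DND41 (360 ± 46.2 CPM) than in CEM (65.6 ± 3.9) and at most 0.116 CPM in a B-precursor library (adjusted p = 0.024, edgeR). CD1B followed the same order, 316 ± 59.1 in DND41 and 29.0 ± 4.27 in CEM, and CD1E the reverse, 68.7 ± 6.6 and 165 ± 25.1. Several other surface genes were high in CEM and far lower in DND41, and none of these was called. CD5 stood at 103 CPM in CEM and 0.796 in DND41, CD2 at 48.6 and 2.99, CD4 at 72.6 and 1.03, CD6 at 48.7 and 0.378, and the costimulatory receptor CD28 at 141 and 13.7. The delta-chain constant gene TRDC was at 76.6 CPM in DND41 and 0 in CEM. It did not pass the filter, which asks for enough counts in at least 2 lines, and was not tested.

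The alpha-chain constant gene TRAC did not follow lineage. It averaged 12.6 ± 0.615 CPM in CEM and 0.192 ± 0.102 in DND41, but 168 ± 44.1 in RS411, a B-precursor line, and 5.56 to 11.3 in the other B-precursor lines. Its log2 fold change was -2.67 ± 2.2 (SE), with an adjusted p of 0.64 (edgeR). The pre-TCR alpha chain PTCRA showed no lineage order either, from 0.00701 CPM in DND41 to 6.32 in Nalm6 (CEM 1.65).

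**Figure D3:**
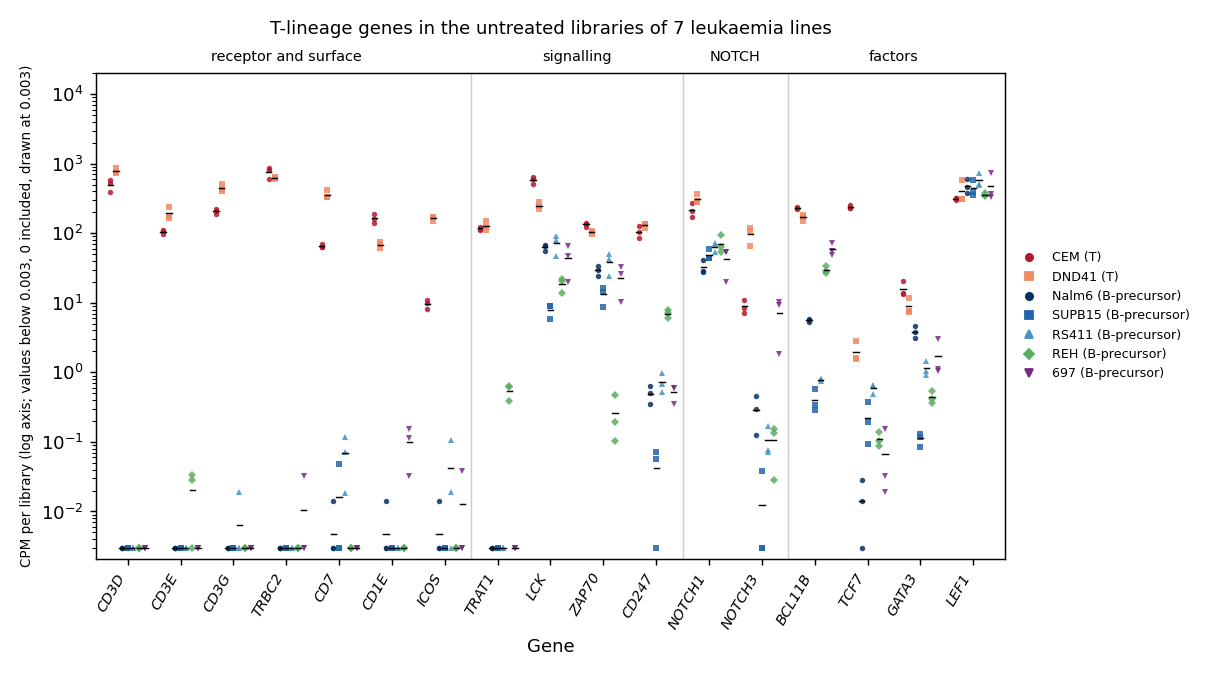
CPM of T-lineage genes in each of the 21 untreated libraries (log axis, values below 0.003 drawn at 0.003), 1 column of points per line, with a bar at the mean of 3 libraries. CD3D, CD3G, CD3E and TRBC2 are at 98.4 CPM or more in all T libraries and at or next to 0 in all B-precursor libraries, while LEF1 lies at one height in all 7 lines.

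Signalling genes next to the receptor were called in part. Of 20 tested, 4 were called higher in T (background 0.355%), SH2D1A, FYB and THEMIS among them, and none higher in B. Both T means were on top in 16 (10.3% of all genes), and the list's median log2 fold change was 2.64. SH2D1A, the adaptor SAP, averaged 559 ± 93.4 CPM in CEM and 117 ± 21.2 in DND41 against at most 0.256 in a B-precursor library (adjusted p = 0.023, edgeR). The adaptor FYB (also named ADAP) was at 99.7 and 34.0 CPM, and THEMIS, needed for thymocyte selection, at 109 ± 50.1 and 16.7 ± 16.6, with a wide spread within each line. Not called were the kinases LCK (589 ± 75.5 CPM in CEM, 251 ± 29.4 in DND41, and 7.95 to 72.9 in the B-precursor lines, adjusted p = 0.15) and ZAP70 (134 and 103 CPM against 0.258 to 39.2). Both are transcribed in B-precursor lines as well, and RS411 held the highest B-precursor mean of each. Without Nalm6 or RS411 none of the 4 kept its call, and DESeq2 called 9 and limma 7 members.

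Of 19 tested transcription factors of the T lineage, 1 was called higher in T (background 0.355%). Both T means lay above all B-precursor means in 8 (10.3% of all genes) and below in 2 (11.2% of all genes). DESeq2 called 3 higher in T and 2 higher in B, and limma 1 higher in T. BCL11B, which commits progenitors to the T lineage, averaged 232 and 170 CPM in the T lines but also 59.0 in 697 and 29.5 in REH (log2 fold change 3.39 ± 1.6, adjusted p = 0.44). TCF7, an early target of NOTCH, differed within the T lines, with 240 ± 16.7 CPM in CEM and 1.99 ± 0.705 in DND41. Its relative LEF1 was expressed in every line between 316 and 580 CPM (log2 fold change -0.33 ± 0.18, adjusted p = 0.48). GATA3 and ETS1 had both T means on top, with 15.9 and 8.96 CPM against 0.112 to 3.84 for GATA3, and 604 and 162 against 58.4 to 122 for ETS1, and neither passed the test.

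In the NOTCH pathway the receptor NOTCH1 was the called member, 1 of 28 tested (background 0.355%). It averaged 217 ± 50.3 CPM in CEM and 309 ± 45.9 in DND41, and 32.4 to 71.0 in the B-precursor lines, whose highest library (95.3) stayed below the lowest T library (169). The log2 fold change was 2.36 ± 0.31 (adjusted p = 0.038, edgeR), and the call was lost without any 1 of the 7 lines (log2 fold change 2.1 to 2.58). Of its target genes HES1 was at 80.5 ± 16.4 and 95.1 ± 25.2 CPM in the T lines and 0.0315 to 2.69 in the others (adjusted p = 0.14), and NOTCH3 at 8.87 and 97.3 CPM, with 7.19 in 697. DTX1 was high in DND41 (336 CPM) and low in CEM (6.87), among B-precursor values from 0.0428 to 142. The ligands DLL4 and JAG2 and the feedback inhibitor NRARP had lower means in both T lines than in all B-precursor lines, without passing the test. Over the list, 4 members had both T means on top (10.3% of all genes) and 6 both below (11.2% of all genes). Together these were 35.7% of the members, beside 21.5% of all genes, and the median log2 fold change was -0.43. DESeq2 called 2 members higher in T and 5 higher in B, and limma 3 and 1.

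Some factors known as T-leukaemia oncogenes were on in a single T line. TAL1 averaged 95.8 CPM in CEM and NKX2-5 147, both at 0 in DND41, whereas TLX3 averaged 48.6 CPM in DND41 and was at 0 in CEM. All 3 stayed at or below 0.00795 CPM in the B-precursor lines, and none passed the filter on low counts. That filter asks for enough counts in at least 2 lines, so a gene on in 1 line alone was not tested whatever its level. Other members of this list were higher in the B-precursor lines: LYL1 (32.1 to 102 CPM in B, 20.6 in CEM, 0.364 in DND41) and MEF2C (182 to 1560 in B, 8.95 in CEM, 0 in DND41) had both T means below. None of the 9 tested members was called by edgeR, 2 had an unadjusted p under 0.05, and DESeq2 called 2 and limma 1.

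**Figure D4:**
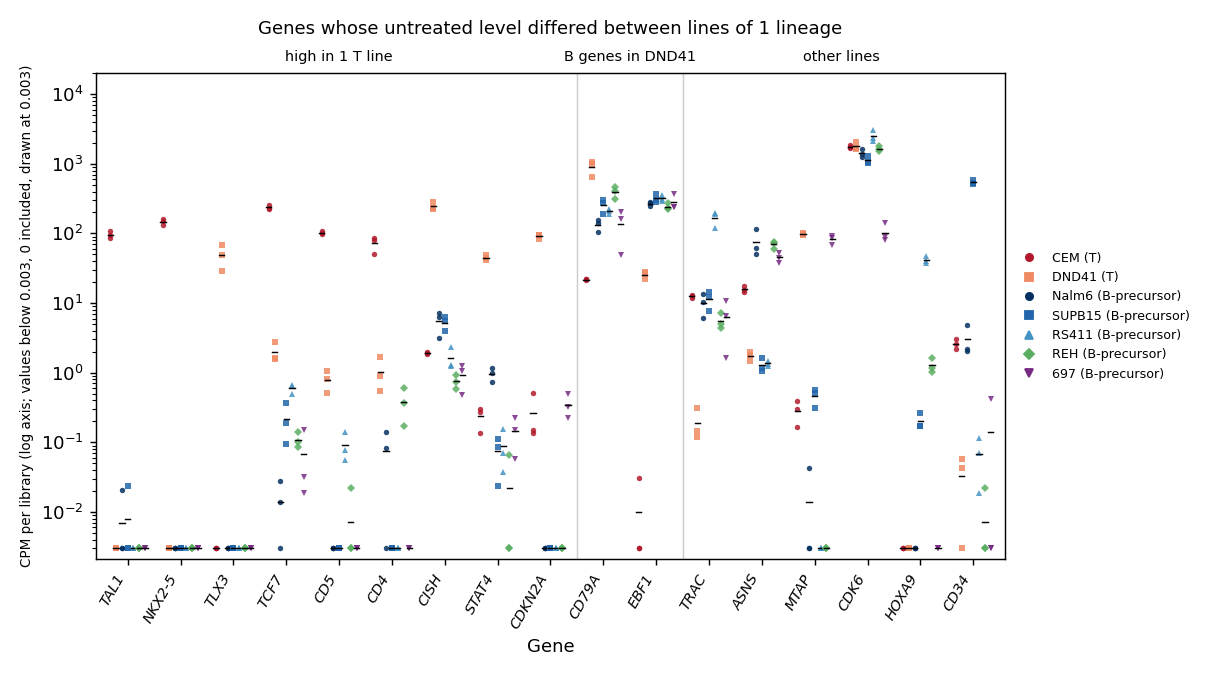
CPM per untreated library (log axis, values below 0.003 drawn at 0.003) of genes whose level differed between lines of 1 lineage, with a bar at the mean of each line's 3 libraries. TAL1 and NKX2-5 are on in CEM and TLX3 in DND41, and CD79A is highest in DND41 at 894 CPM.

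Genes of the pre-B-cell receptor and the B-cell surface showed the opposite picture. Of 20 tested, 4 were called higher in B (background 0.299%) and none higher in T, with a median log2 fold change of -5.36, or -4.30 with the 5 genes at 0 counts in a group set to their bound. CD22, an inhibitory lectin, was at 40.4 to 105 CPM, with 2 counts in the T libraries, a ratio of 9400 with a counting interval from 2600 to 77600 (adjusted p = 0.022). VPREB3 was at 32.3 to 116 CPM against at most 0.134 in a T library (adjusted p = 0.025), and the tetraspanin CD9 at 176 to 615 against at most 0.334 (adjusted p = 0.044). None of the 4 was still called without Nalm6, REH or RS411, and 3 kept the call without CEM. DESeq2 called 9 members higher in B and 1, CR2, higher in T, and limma 6 and 1.

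Other parts of the receptor were spread less evenly. IGHM, the heavy chain, averaged 140 to 1660 CPM in the B-precursor lines and 0.607 and 0.132 in CEM and DND41 (adjusted p = 0.08, edgeR). The surrogate light chain gene IGLL1 was also read in the T lines, at 33.5 ± 2.49 CPM in CEM and 256 ± 94.9 in DND41, close to 302 ± 179 in 697, the lowest B-precursor line. Its partner VPREB1 was listed at 0 in REH and averaged 23.4 CPM in CEM and 142 to 481 in the other B-precursor lines. CD79B averaged 89.5 to 374 CPM in the B-precursor lines and 14.5 and 7.92 in the T lines. CD79A did not follow it: DND41 had 894 ± 219 CPM, the highest mean of the 7 lines, above REH (393 ± 74.2), while CEM had 21.8 ± 0.332. Its log2 fold change of 1.01 ± 1.1 did not pass (adjusted p = 0.72, edgeR) and was -3.36 without DND41. The complement receptor CR2 averaged 16.5 CPM in CEM and 10.1 in DND41, with 0 counts in the 15 B-precursor libraries (adjusted p = 0.071, edgeR).

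Of 24 tested genes of B-cell receptor signalling, 3 were called higher in B (background 0.299%): the adaptor BLNK, the Src-family kinase LYN and the adaptor DOK3. BLNK was at 32.1 to 141 CPM in the B-precursor lines and 0.16 ± 0.0305 and 0.0392 ± 0.0507 in CEM and DND41 (adjusted p = 0.031, edgeR). LYN ranged from 9.42 ± 2.96 in REH to 160 ± 33.9 in RS411, with 1 count in the T libraries (adjusted p = 0.045). DOK3 was at 20.6 to 51.3 CPM against 0.82 and 0.789 (log2 fold change -5.50 ± 0.58, adjusted p = 0.024). The kinases SYK (91.7 to 431 CPM against 0.0203 and 0.458) and BTK (14.3 to 210 against 0.132 and 0.0431) and the adaptor PIK3AP1 (341 to 1070 against 0.764 and 6.53) missed the threshold, with adjusted p of 0.054, 0.051 and 0.053 (edgeR). FGR, a Src-family kinase of this list, was highest in DND41, at 57.9 CPM against 0.261 in CEM and at most 0.107 in a B-precursor line. Both T means lay below all B-precursor means in 9 members (11.2% of all genes) and above in 1 (10.3% of all genes). DESeq2 called 1 member of the list higher in T. No member kept its call without CEM, DND41, Nalm6 or RS411, and DESeq2 called 8 and limma 6 members higher in B.

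Among 21 tested B-lineage transcription factors and neighbours, 1 was called, higher in B (background 0.299%). This was ZCCHC7, which encodes an RNA-processing protein and lies next to PAX5 on chromosome 9. ZCCHC7 was expressed in all lines, at 27.9, 30.5 and 37.1 CPM in the CEM libraries (mean 31.8 ± 4.75), 34.1, 30.2 and 38.8 in those of DND41 (mean 34.4 ± 4.31) and 414 to 592 in the B-precursor lines (15 libraries, lowest 361, median 498, highest 897). Its log2 fold change of -3.92 ± 0.2 had the smallest adjusted p of the B-cell lists, 0.0027 (edgeR), and it was called in all 36 alternative analyses. PAX5 itself averaged 221 to 407 CPM in the B-precursor lines, 0.292 ± 0.0184 in CEM and 0 in DND41 (adjusted p = 0.061). EBF1 averaged 242 to 319 CPM in the B-precursor lines and 0.0101 in CEM, but 25.7 ± 3.06 in DND41 (adjusted p = 0.42). TCF3, which encodes the E proteins E12 and E47, was at 138 CPM in both T lines and 252 to 588 in the B-precursor lines (log2 fold change -1.59 ± 0.35, adjusted p = 0.13). Both T means lay below all B-precursor means in 13 of the 21 (11.2% of all genes) and above in none (10.3% of all genes). The median log2 fold change was -2.96. DESeq2 called 10 members and limma 7, all higher in B.

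**Figure D5:**
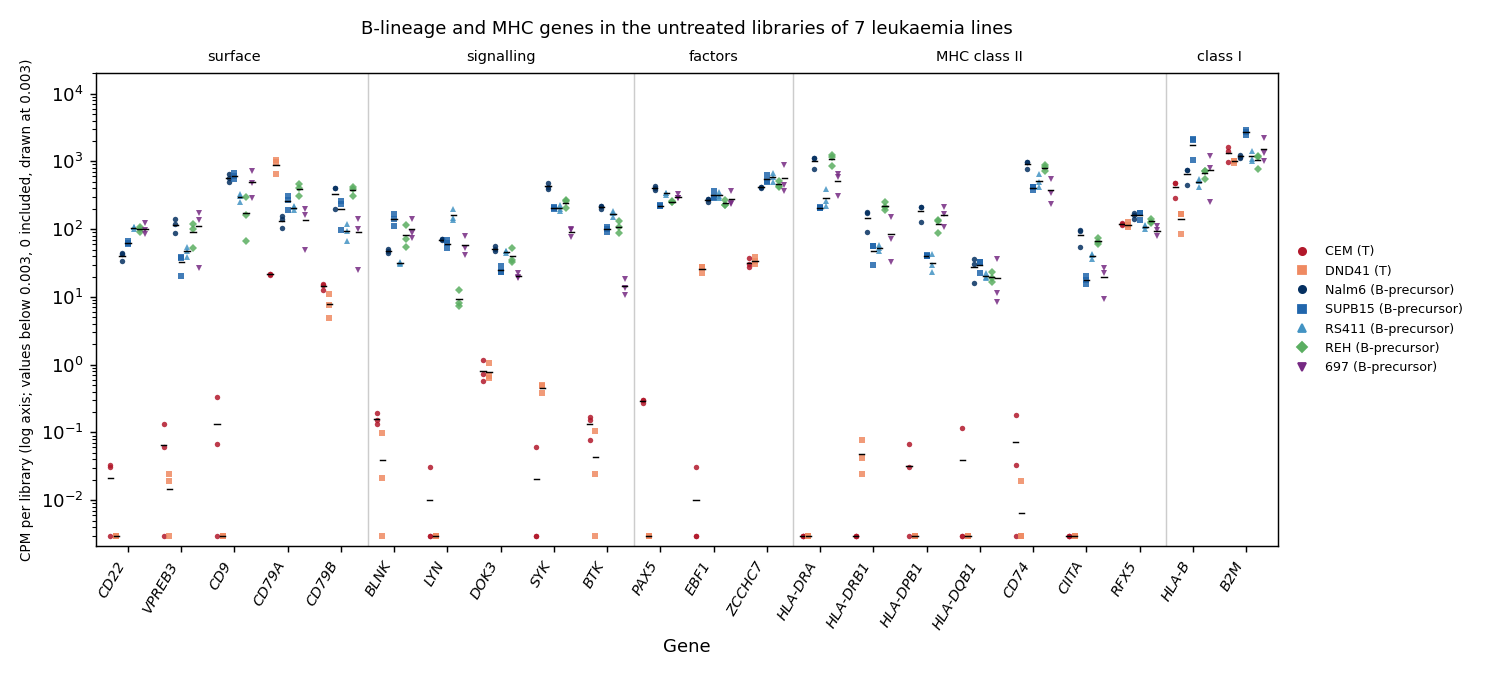
CPM per untreated library (log axis, values below 0.003 drawn at 0.003) of B-lineage and MHC genes, with a bar at the mean of each line's 3 libraries. CD22, HLA-DRA and CIITA are at or near 0 in the T libraries, CD79A and EBF1 are read in DND41 at 894 and 25.7 CPM, and RFX5 and B2M lie in one range in all 7 lines.

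The classical MHC class II genes were at or near 0 in the T lines, while the general factors that act on them were not. Of 22 tested, 6 were called higher in B (background 0.299%): HLA-DRA, HLA-DRB1, HLA-DPB1, HLA-DQB1, CD74 and CIITA. None was called higher in T. Both T means lay below in 13 (11.2% of all genes), and the median log2 fold change was -5.28. HLA-DRA averaged 1010 ± 199 CPM in Nalm6, 208 ± 0.908 in SUPB15, 292 ± 91.2 in RS411, 1090 ± 200 in REH and 516 ± 178 in 697. Not 1 count of HLA-DRA was found in the 6 T libraries, so the B-precursor mean was at least 47600-fold higher, against a floor of 3 counts over the T group (adjusted p = 0.032, edgeR). CIITA, a coactivator of class II transcription, was likewise at 0 counts in the T lines. It was at 17.9 to 82.3 CPM in the B-precursor lines, at least 3470-fold higher (adjusted p = 0.034, edgeR). A link between CIITA and the levels of the class II genes was not tested. CD74, the invariant chain, was at 378 to 917 CPM against 0.0719 ± 0.097 and 0.00643 ± 0.0111 (adjusted p = 0.021). Among the B-precursor lines, Nalm6 and REH held the highest means of HLA-DRA, HLA-DRB1, CD74 and CIITA. HLA-DPB1 and HLA-DQB1 did not share this order. The HLA-DPB1 libraries read 170, 213 and 107 CPM in 697 and 88.9, 136 and 130 in REH. Those of HLA-DQB1 read 22.7, 32.8 and 33.2 CPM in SUPB15 and 16.6, 23.7 and 19.0 in REH.

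The DNA-binding factors that recruit CIITA were expressed in all lines, with overlapping line means. RFX5 averaged 119 and 117 CPM in CEM and DND41 and 95.3 to 161 in the B-precursor lines (log2 fold change -0.14 ± 0.26, adjusted p = 0.86, edgeR). RFXAP, RFXANK, NFYA, NFYB, NFYC and CREB1 overlapped between the lineages too, with log2 fold changes from -0.30 to 0.39. HLA-DMA, a peptide editor, was read in the T lines at 1.33 and 0.932 CPM against 8.33 to 37.2. Without Nalm6, REH or RS411 none of the 6 kept its call, and 2 did without CEM or DND41, while DESeq2 called 12 and limma 11 members, all higher in B. HLA genes vary between people and share reads among copies, so the counts of single HLA genes may depend on each line's alleles.

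MHC class I genes, by contrast with class II, were expressed in every line. None of 20 tested genes of class I and its loading was called by edgeR, DESeq2 or limma, and none had an unadjusted p under 0.05. B2M averaged 1340 and 1000 CPM in CEM and DND41 and 1040 to 2680 in the B-precursor lines. HLA-B was lowest in DND41 (140 CPM) and CEM (416) and reached 1750 in SUPB15 (log2 fold change -1.61 ± 0.68, adjusted p = 0.39). Line means did not overlap in 3 of the 20 members, 15%, beside 21.5% of all genes.

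No call was made in the recombination machinery that both lineages use. With 0.655% of all genes called, that says little about a list of this size. None of 15 tested genes of V(D)J recombination and end joining was called by edgeR. At an unadjusted p under 0.05 (edgeR) there was 1, beside 2751 of all 21380 genes. DESeq2 called 1 and limma 0, and the median log2 fold change was 0.03. RAG1 averaged 1480 ± 268 CPM in DND41 and 270 ± 5.51 in CEM, beside B-precursor means from 71.4 ± 20.6 in 697 to 1230 ± 315 in REH. CEM lay within that range and DND41 above it. RAG2 was at 28.1 ± 4.27 CPM in CEM and 54.7 ± 9.33 in DND41 and 45.1 to 261 in the B-precursor lines. DNTT, the polymerase that adds nucleotides at the joints, ranged from 29.5 ± 8.96 in DND41 through 95.4 ± 41.5 in RS411 and 150 ± 24.4 in CEM to 1430 ± 222 in SUPB15. For these 3 genes the range among the B-precursor lines exceeded the difference of the lineage means, with adjusted p of 0.79, 0.49 and 0.36 (edgeR).

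Antigens used as therapy targets in leukaemia were called in 3 of 20 cases (background 0.655%), 1 higher in T (CD7) and 2 higher in B (CD22 among them). CD38, a target in T-cell disease, was expressed in all lines and highest in DND41, at 876 CPM, followed by REH (288) and CEM (213). FLT3 was at 0.142 and 0.087 CPM in the T lines and 96.9 to 145 in 4 B-precursor lines, with 6.38 ± 1.54 in Nalm6 (adjusted p = 0.072, edgeR). MS4A1, the gene of CD20, was low throughout, at most 4.43 CPM (697), with 0 in both T lines. CD34, a progenitor antigen, reached 542 CPM in SUPB15 and at most 3.05 elsewhere. Without Nalm6 or REH none of the 3 calls held, while DESeq2 called 8 members and limma 4.

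None of 32 tested cytokine receptor and JAK-STAT genes was called by edgeR, and DESeq2 called 6 and limma 4. An unadjusted p under 0.05 (edgeR) was found in 11, beside 2751 of all 21380 genes. IL7R, which drives early lymphoid growth, was at 480 CPM in DND41 and 160 to 613 in the B-precursor lines but 14.1 in CEM. The shared gamma chain IL2RG had both T means on top, 157 and 115 CPM against 11.6 to 49.3 (log2 fold change 2.41 ± 0.5, adjusted p = 0.12). DND41 had the highest means of the feedback inhibitors CISH (248 ± 33.5 CPM) and SOCS1 (62.5) and of the transcription factor STAT4 (44.5 ± 3.5), against at most 5.49, 2.95 and 0.972 in any other line. CSF2RB, the shared beta chain of the GM-CSF and IL-3 receptors, was at 0 in both T lines and 2.36 to 67.9 CPM in the B-precursor lines (adjusted p = 0.098).

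Homing and adhesion genes leaned to the T side, with the log2 fold change above 0 in 15 members and below 0 in 9. Of 24 tested, 2 were called, both higher in T (background 0.355%). Both T means were on top in 10 (10.3% of all genes) and below in none (11.2% of all genes). The median log2 fold change was 2.04. ITGB2, the integrin beta chain CD18, averaged 247 ± 7.61 and 241 ± 61.9 CPM in CEM and DND41 and 23.5 to 59.6 in the B-precursor lines (log2 fold change 2.73 ± 0.34, adjusted p = 0.034, edgeR). SELPLG, the selectin ligand PSGL-1, was at 36.7 ± 3.47 and 42.1 ± 7.0 CPM against at most 0.844 in a B-precursor library (log2 fold change 7.16 ± 1.1, adjusted p = 0.048). The ITGB2 partner ITGAL was at 81.8 CPM in CEM, 12 in DND41 and 0.0063 to 9.71 in the B-precursor lines. The chemokine receptor CCR4 was high in CEM (232 CPM) and not in DND41 (0.124). Neither gene was called without CEM, DND41, RS411, REH, SUPB15 or 697, 1 kept its call without Nalm6, and DESeq2 called 7 and limma 4 members.

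Among genes of asparagine and amino acid metabolism, the subject of the series' drug treatment, none was called between the lineages before treatment. With 0.655% of all genes called, that says little about lists of this size. ASNS, asparagine synthetase, averaged 15.7 ± 1.38 CPM in CEM and 1.75 ± 0.282 in DND41, 1.28 ± 0.302 in SUPB15 and 1.36 ± 0.114 in RS411, and 75.4 ± 34.1 in Nalm6, 69.5 ± 8.55 in REH and 45.2 ± 7.37 in 697. The 3 highest means were of B-precursor lines and the 2 lowest too, with both T lines between them, and the log2 fold change was -2.08 ± 1.9 (adjusted p = 0.67, edgeR). None of 16 asparagine and glutamine enzymes, 19 amino acid response regulators, 17 serine and one-carbon enzymes or 19 amino acid transporters was called by edgeR or limma. At an unadjusted p under 0.05 (edgeR) were 0, 1, 1 and 4 members, beside 2751 of all 21380 genes. DESeq2 called 0, 1, 1 and 2, beside 2083 of all 21380 genes. SHMT2, a mitochondrial serine enzyme, had both T means below, 148 and 138 CPM against 185 to 341 (adjusted p = 0.22), and SLC1A4, a neutral amino acid transporter, both above, 173 and 268 against 43.4 to 125 (adjusted p = 0.25). PSAT1, of serine synthesis, was at 0.0221 ± 0.0211 CPM in DND41 and 53.7 to 211 in the 6 other lines. The regulator ATF4 was at 423 CPM in CEM and 822 in DND41, and 426 to 639 in the B-precursor lines.

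Of 25 tested genes that handle nucleoside, thiopurine and antifolate drugs, 1 was called, ADA, higher in T (background 0.355%). Adenosine deaminase clears deoxyadenosine, whose build-up is toxic to T-cell precursors, and averaged 548 ± 74.7 CPM in CEM and 643 ± 110 in DND41 against 78.2 to 138 in the B-precursor lines (log2 fold change 2.43 ± 0.24, adjusted p = 0.023, edgeR). The T libraries read 481, 535 and 629 (CEM) and 573, 586 and 769 CPM (DND41), and the highest of the 15 B-precursor libraries 166. DESeq2 called 1 member higher in T and 2 higher in B, and limma 1 higher in T. The ADA call was lost without DND41, Nalm6 or RS411, with log2 fold changes of 2.33 to 2.54 over the 7 fits with a line left out. FPGS, which adds the glutamate tail that holds methotrexate in the cell, had lower means in both T lines, 54.9 and 35.3 CPM against 92.0 to 166 (log2 fold change -1.45 ± 0.32, adjusted p = 0.13). The deoxynucleotide hydrolase SAMHD1 was at 0.356 and 0.224 CPM in the T lines and 1.51 to 133 in the others (adjusted p = 0.33), and the ectonucleotidase NT5E was at 0 in both T lines but also at 0.00702 in Nalm6.

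None of 18 glucocorticoid, 17 BCL2-family and 18 cyclin D, CDK and inhibitor genes was called by edgeR or limma. DESeq2 called 3, 2 and 1, beside 2083 of all 21380 genes. Those at an unadjusted p under 0.05 (edgeR) were 3, 2 and 2, beside 2751 of all 21380 genes. The receptor NR3C1 was at 260 and 313 CPM in the T lines and 61.6 (REH) to 622 (RS411) in the others. Its target TSC22D3 had both T means below, 5.85 and 3.75 CPM against 12.8 to 150, while FKBP5 was at 0.759 in DND41 and 82.4 to 144 in the 6 remaining lines. BCL2L1 had both T means on top (79.9 and 208 CPM against 28.9 to 64.2, adjusted p = 0.16), and BCL2 ranged from 45.7 CPM in CEM to 414 in RS411. CDKN1A was at 3.21 and 12.4 CPM in the T lines and 29.8 to 129 in the others (adjusted p = 0.15).

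Reference genes give the scale of small differences between these lines. None of 25 mitosis genes was called by edgeR or limma, and DESeq2 called 2. At an unadjusted p under 0.05 (edgeR) there were 5, all toward T, beside 2751 of all 21380 genes. The median log2 fold change of the mitosis genes was 0.35. None of 25 housekeeping genes was called by edgeR (7 at an unadjusted p under 0.05), while limma called 1 and DESeq2 2, and line means did not overlap in 10 of them, 40.0% beside 21.5% of all genes. PGK1, a glycolytic enzyme, averaged 2220 and 3150 CPM in the T lines and 412 to 1330 in the others (log2 fold change 1.85 ± 0.46, adjusted p = 0.17).

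Outside the lists, the largest called differences included genes that no list held. BEX3 and BEX4, small adaptor proteins best known from neurons and encoded on the X chromosome, were at 55.7 ± 12.2 and 52.2 ± 11.4 CPM in CEM and 108 ± 12.6 and 62.2 ± 3.86 in DND41. The B-precursor libraries together held 1 count of BEX3 and none of BEX4, which was thus at least 12200-fold higher in T (adjusted p = 0.0071 and 0.038, edgeR). ELOVL4, a fatty acid elongase, was at 211 and 126 CPM in CEM and DND41, NDST3, a heparan sulfate sulfotransferase, at 170 and 63.5, and the costimulatory receptor ICOS at 9.64 and 164, each with B-precursor means of at most 0.0489 CPM. Chosen after their values were seen, IL32, a cytokine made by T cells, was at 217 and 146 CPM, and SMPD3, a neutral sphingomyelinase, at 302 and 633, with B-precursor means up to 0.0665 and 0.218.

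On the B side, PTK2, LAMC1, KIF16B, ZCCHC14, CD163L1 and the immunoglobulin segment IGHV5-78 had 0 counts in all 6 T libraries. PTK2, the focal adhesion kinase, averaged 47.7 to 198 CPM in the B-precursor lines, at least 9390-fold higher (adjusted p = 0.025, edgeR). LAMC1, the laminin gamma-1 chain, was at 47.0 to 225 CPM, at least 8040-fold higher (adjusted p = 0.025). KIF16B, an endosomal kinesin, was at 27.0 to 53.2 CPM, at least 3060-fold higher (adjusted p = 0.0067). PSD3, CCDC50 and CRIM1 had 1 count each in the T group and B-precursor means of 41.7 to 323, 70.2 to 128 and 31.9 to 187 CPM. TRIB1, a pseudokinase chosen after its values were seen, was at 36.5 to 63.0 CPM in the B-precursor lines and 0.661 and 1.03 in the T lines (log2 fold change -5.80 ± 0.45, adjusted p = 0.011).

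Some called genes differed by little but held closely to their lineage, and these too were chosen after their values were seen. CHD7, a chromatin remodeller, averaged 51.0 ± 12.3 CPM in CEM and 51.1 ± 16 in DND41 against 162 to 207 in the B-precursor lines (log2 fold change -1.77 ± 0.16, adjusted p = 0.021, edgeR). HDAC5, a class IIa histone deacetylase, was at 14.5 and 10.6 CPM against 74.9 to 117 (log2 fold change -2.77 ± 0.27, adjusted p = 0.022). GTF2A1, a subunit of the general factor TFIIA, was at 175 ± 17.4 and 186 ± 25.9 CPM against 79.3 to 98.1 (log2 fold change 1.07 ± 0.14, adjusted p = 0.036), the smallest change among the called genes.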

How the data were processed

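Total RNA of untreated and L-asparaginase-treated lines was sequenced with standard Illumina libraries, per the labels' protocols, and the authors deposited 7 tables of raw counts, 1 per line, with gene symbols as identifiers and whole, unnormalized values. The submitters' processing notes name hg19. Aligner, counter, annotation and strand setting: not given in the sources used here. Overlapping and antisense genes may therefore share counts. Column names gave the group of each library. The letters A, B and C in 6 tables are in no label and only name libraries. The tables were joined on 50648 symbols. Between 26 and 28 symbols per table had become calendar dates and are not named, and 2 duplicated ones were dropped (at most 0.000949% of a library). Between 2 libraries of a line, counts differed well beyond sampling noise.

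Counts were summed over the 3 untreated libraries of a line, filtered with filterByExpr (minimum count 10), TMM-scaled and tested with glmQLFit and glmQLFTest of edgeR 4.0.16 in R 4.3.3 (T minus B), with Benjamini-Hochberg adjustment. The filter asks for enough counts in at least 2 lines, the size of the smaller group. The procedure was tested on simulated data. P-values measure the spread between lines. Standard errors are the log2 fold change divided by the root of the F statistic. CPM of single libraries used TMM factors over 21 libraries, log2 CPM a prior count of 2, and group floors 3 counts. Counting intervals are exact Poisson (95%). The members, 24 gene lists, 6 marker lists and tests were chosen with earlier results of these data known. Genes named by rule are the 12 largest called changes in each direction with non-overlapping libraries and a mean log2 CPM of 3 or more (without XIST, Y-linked genes, and symbols in date or clone form), up to 4 called members per list and direction by adjusted p, up to 3 uncalled members per list with overlapping lines and a log2 fold change above 2 in size, RAG1, RAG2, DNTT and ASNS. Other named genes were chosen after their values were seen. Some genes that the rule names are not reported here. Of the list genes, 4 are not in the tables. Neighbouring genes and promoters come from RefSeq (GRCh38.p14), whose coordinates were not combined with the hg19 counts. Alternatives were other scaling, filters and tools (DESeq2 1.42.0, limma 3.58.1), leaving out lines or libraries, spread within lines, and the treated libraries.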

Additional observations from a re-analysis of the deposited data

Results flagged for a closer look

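Of 176 named genes, 110 varied by at least 1 on the log2(CPM + 1) scale over the 5 B-precursor lines, and in 22 of them 1 line stood far from the other 4 by Dixon's criterion (critical value 0.71). Chance marks about 1 group in 20 where groups are taken without regard to their values. These genes were named partly for their values and kept for a wide range, so that rate does not apply to their number. RS411 was high in TRAC (168 CPM, others 5.56 to 11.3), CD6 (1.18, others 0 to 0.14) and the homeobox genes HOXA9 (41.5, others 0 to 1.27) and HOXA10 (55.1, others 0 to 0.906). RS411 was low in TCF4, which encodes the E protein E2-2 (3.66, others 201 to 615), and in CDKN1A (29.8, others 91.5 to 129).

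REH had 0 CPM of VPREB1 (others 142 to 481) and of PYCR1, of proline synthesis (0, others 76.8 to 101). REH was low in IRF4 (2.42, others 107 to 354) and high in the T-cell receptor zeta chain CD247 (7.0, others 0.0427 to 0.725) and HOXA11 (1.11, others 0 to 0.18). SUPB15 was high in CD34 (542, others 0.00725 to 3.05), the light chain gene IGKC (2.11, others 0 to 0.374) and CDK14 (213, others 77.7 to 104). Nalm6 was low in FLT3 (6.38, others 96.9 to 145).

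The line 697 was low in CDK6 (103, others 1120 to 2510), BTK (14.3, others 99.9 to 210), the protease CTSS (7.98, others 45.8 to 81.4) and CD163L1 (3.16, others 13.9 to 23.2). It was high in MTAP, of methionine salvage (82.1, others 0 to 0.465), NOTCH3 (7.19, others 0.0126 to 0.29) and CD1A (3.86, others 0 to 0.284).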

How the results depend on the processing

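The numbers of genes called higher in T and in B were 76 and 64. They were 664 and 1419 with DESeq2, 281 and 239 with limma, and 5306 and 4592 when the spread between libraries of a line took the place of that between lines. Leaving out a line or a library gave 5 to 93 and 7 to 110. Other size factors, filters, the treated libraries and the fit without the first libraries of 5 lines stayed within 1.5 times of both counts. The genes behind these totals were not all the same. The treated libraries called 156 genes and kept 85 of the 140 calls. The fit with no filter kept 103, the stricter filter 112, the fit without 5 libraries 121 and other size factors 140. All 140 genes kept their direction in each fit that tested them. Of 62 called named genes, 57 lost the call in at least 1 alternative and 0 reversed, and 15 of 114 uncalled ones reversed. Their log2 fold changes when a line or library was left out ran from -11.55 to 0.61 in CD34, -0.08 to 8.12 in STAT4, -0.58 to 6.4 in CISH, -0.89 to 6.19 in S1PR1, -10.78 to 5.42 in ASRGL1, -5.82 to 6.17 in BCL2A1, -0.84 to 1.58 in RAG1, -3.38 to 2.17 in DTX1, -3.36 to 1.98 in CD79A, -4.59 to 0.46 in IL7R, -5.82 to 8.61 in MTAP, -0.39 to 0.25 in NR3C1, -0.21 to 0.69 in ATF4 and -1.13 to 0.15 in MYC. With the treated libraries RAG1 was at -0.48 and LEF1 at 0.51. CD79A was at -0.56 with the spread within lines and -0.52 with limma, and NR3C1 at 0.2 in both. The cause was not tested. No paired analysis was possible because the test compares 1 sum per line and a line belongs to 1 lineage. With 2 T lines, the spread between T lines rests on a single difference, and lineage cannot be told apart from other properties of these lines.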

Other observations

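Single lines also differed within a lineage in genes that lie side by side. MTAP and CDKN2A, neighbours on chromosome 9, averaged 98.3 and 91.1 CPM in DND41 but 0.286 and 0.263 in CEM, while 697 had 82.1 CPM of MTAP and 0.346 of CDKN2A. In the 4 remaining B-precursor lines MTAP stayed at or below 0.465 CPM and CDKN2A at 0. PYCR1 was listed at 0 in DND41 as well as in REH, and averaged 15 CPM in CEM. The sphingosine receptor S1PR1, which guides lymphocyte exit from tissues, averaged 73.8 CPM in CEM and 0.198 to 1.79 in the other lines.

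Of the 140 called genes, 98 could be placed in RefSeq gene order, and 12 pairs lay within 2 places of each other, all 12 with the same direction. Beside the CD3, CD1 and MHC class II genes these were CD22 and FFAR1, CFTR and CTTNBP2, NXF3 and BEX4, RIC1 and ERMP1, TRAM1L1 and NDST3, and TSHR and GTF2A1. The pairs are not independent, since the CD3 genes and HLA-DRB1 each stand in more than 1 of them. How often neighbouring genes of any kind share a direction was not counted. Reads shared by overlapping neighbours were not tested as a source of such pairs.

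Antigen receptor segments were called across lineages. The heavy chain segments IGHV3-7 (1.8 CPM in CEM and 0.755 in DND41, adjusted p = 0.032, edgeR) and IGHV3-35 (1.03 and 6.39, adjusted p = 0.034) were higher in the T lines than in the B-precursor lines, where line means did not exceed 0.0117 CPM. TRBV30, a beta chain segment, was at 0.825 and 0.519 CPM in the T lines (adjusted p = 0.034), with 1 count in the B-precursor group. Among natural killer markers, NCR3 was called, at 3.73 and 2.67 CPM against 0.0237 to 0.15 (adjusted p = 0.043). These genes were chosen after their values were seen.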
